A study of Homo sapiens with 6 samples.

Results

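TXNIP, ARRDC4 and DDIT4 are 3 of the 403 genes in the deposited comparison of HCCLM3 cells given ginkgolic acid with HCCLM3 cells given the vehicle DMSO. They were chosen by name, as a pair of genes that restrain glucose uptake and a gene that restrains mTORC1, with their difference between the groups already known. That difference is therefore described here without a test. HCCLM3 is a hepatocellular carcinoma cell line, labelled WT in both groups, and ginkgolic acid is a phenolic acid with a long alkyl chain found in Ginkgo biloba. One group of 3 libraries came from cells kept for 24 h with 10 µM ginkgolic acid, and the other group of 3 libraries from cells kept for 24 h with DMSO. The labels do not say whether the libraries of a group came from separate cultures, so the spread between them may be technical.

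TXNIP and ARRDC4 belong to the alpha-arrestins, adaptor proteins that link membrane proteins to ubiquitin ligases and endocytosis. Both lower glucose uptake by removing glucose transporters such as GLUT1 from the cell surface, and TXNIP also binds thioredoxin. Their genes are textbook targets of MondoA (MLXIP) and ChREBP (MLXIPL), transcription factors that pair with MLX, respond to sugar phosphates and bind carbohydrate response elements made of a pair of E-box-like half-sites. DDIT4, also known as REDD1, is a small cytosolic protein that acts through the TSC1 and TSC2 complex to lower mTORC1 activity. It is known to be induced by hypoxia, glucocorticoids, DNA damage, energy stress and ATF4. In liver cells these proteins connect the supply of sugar and amino acids to uptake and growth.

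The upstream sequences of the genes are shown because the response elements named above were described in such regions. Each stretch has 200 bases, runs from -230 to -31 relative to the RefSeq start site of the gene, and is written 5′ to 3′ on the strand of the gene (RefSeq, GRCh38.p14). The TXNIP stretch is chr1:145996610-145996809 on the minus strand, the ARRDC4 stretch chr15:97960473-97960672 on the plus strand and the DDIT4 stretch chr10:72273694-72273893 on the plus strand. Capitals mark CCAAT boxes, the E-box CACGTG, the half-site CACGAG and pairs of CNCGNG half-sites spaced by 5 bases, each on either strand.
TXNIP: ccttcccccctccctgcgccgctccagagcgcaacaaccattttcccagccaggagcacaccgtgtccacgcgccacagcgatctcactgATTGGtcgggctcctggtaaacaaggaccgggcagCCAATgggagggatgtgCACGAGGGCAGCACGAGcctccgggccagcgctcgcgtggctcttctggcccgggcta
ARRDC4: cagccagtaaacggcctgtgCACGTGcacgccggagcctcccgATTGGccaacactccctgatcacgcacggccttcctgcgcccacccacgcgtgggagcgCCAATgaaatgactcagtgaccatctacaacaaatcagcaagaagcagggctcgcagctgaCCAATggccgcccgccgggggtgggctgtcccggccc
DDIT4: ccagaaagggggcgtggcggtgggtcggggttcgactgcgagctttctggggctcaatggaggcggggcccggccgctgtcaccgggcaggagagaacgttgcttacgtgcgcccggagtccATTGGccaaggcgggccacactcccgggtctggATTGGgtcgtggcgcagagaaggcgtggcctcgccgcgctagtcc
Motifs were searched in the 300 bases from 250 before the start site to 50 after it, and matches are descriptions of letters and not of bound sites.

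TXNIP held CACGAG on the gene's strand at -88 and again at -77. Together they formed the motif CNCGNGNNNNNCNCGNG, from -88 to -72, in capitals in the TXNIP sequence. That motif, a permissive spelling of the carbohydrate response element, had a match in 599 of 27305 RefSeq promoters (2.19%), and CACGAG had one in 6.79%. ARRDC4 held no match to either in this window. It held the palindromic E-box CACGTG from -210 to -205, a motif found in 7.43% of promoters. CCAAT boxes, the letters bound by the factor NF-Y, were the motif that the windows had in common: TXNIP had matches at -140 and -105, ARRDC4 at -187, -128 and -67, and DDIT4 at -108 and -75. CCAAT is frequent, with a match in 35.7% of promoters. The forkhead letters GTAAACA, in 3.41% of promoters, were in the TXNIP window at -124. The hypoxia core ACGTG, in 21.6% of promoters, was in the DDIT4 window at -125 and on both strands within the E-box of ARRDC4, which contains it. TGATGNAA, a core of C/EBP-ATF sites with a match in 3.67% of promoters, was in none of these 3 windows.

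**Figure D1:**
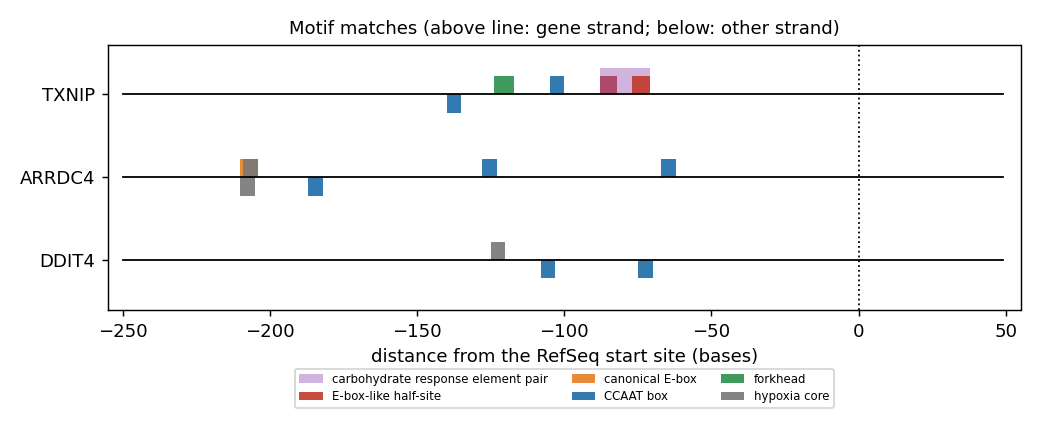
Motif matches in the promoter windows of TXNIP, ARRDC4 and DDIT4, by distance in bases from the RefSeq start site (dotted line). Coloured boxes above a line are matches on the strand of the gene and those below it on the other strand. The paired half-sites of TXNIP lie from -88 to -72, and each window has CCAAT boxes.

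Levels are given as normalised read counts, as the deposited values behave: they carry no stated unit and are taken here as read counts divided by a scaling factor of each library. Read totals and counting errors rest on that reading of the values. They are relative to the other RNA in a library, so more transcript per cell cannot be told apart from less of the RNA that sets the scale. All 3 genes were higher with ginkgolic acid, as were 62.8% of the 403 genes in the table. In each of the 3 the lowest ginkgolic acid library lay above the highest DMSO library, as it did in 61.5% of the table, and groups were apart in either direction in 98.3%. The table holds only genes that the authors had selected for a difference, so nothing about these genes is read from those counts.

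TXNIP (ENSG00000265972, chromosome 1, 145992435 to 145996600, minus strand) had 1103, 1172 and 1215 normalised read counts in DMSO replicates 1, 2 and 3. With ginkgolic acid it had 3824, 3881 and 3669 in replicates 1, 2 and 3. The libraries of each group lay close together and far from those of the other group. Even the lowest ginkgolic acid library was 3.02-fold above the highest DMSO library. The means were 3792 ± 110 with ginkgolic acid and 1163 ± 56.5 with DMSO (SD, n = 3 each), and the limma log2 fold change was 1.70 (SE 0.07). Its coefficient of variation was 2.89% with ginkgolic acid and 4.85% with DMSO, where counting error alone would give 1.62% and 2.91%. The gene has 8 exons in its longest annotated transcript, and no other annotated gene overlaps it.

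ARRDC4 (ENSG00000140450, chromosome 15, 97960698 to 97973838, plus strand), the arrestin-domain relative of TXNIP, was expressed at a lower level. DMSO replicates 1, 2 and 3 had 198.2, 184.9 and 222.6 normalised read counts, and ginkgolic acid replicates 1, 2 and 3 had 659.2, 603.8 and 624.9. The lowest ginkgolic acid library exceeded the highest DMSO library 2.71-fold. Means of 629.3 ± 28.0 and 201.9 ± 19.1 (SD, n = 3 each) gave a log2 fold change of 1.64 (SE 0.11). Its coefficient of variation was 4.44% with ginkgolic acid, against 3.98% from counting error, and 9.47% with DMSO, against 6.98%. The gene has 1 annotated transcript with 8 exons and no overlapping gene.

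DDIT4 (ENSG00000168209, chromosome 10, 72273920 to 72276036, plus strand) was the most abundant of the 3. It had 2741, 3249 and 2724 normalised read counts in DMSO replicates 1, 2 and 3 and 5117, 7090 and 6212 in ginkgolic acid replicates 1, 2 and 3. The groups did not overlap, but the gap was narrower than for the alpha-arrestins, with the lowest ginkgolic acid library 1.58-fold above the highest DMSO library. The means were 6139 ± 988 and 2904 ± 298 (SD, n = 3 each), and the log2 fold change was 1.07 (SE 0.10). That SE is moderated by limma toward a variance trend over the selected genes, and with no intensity trend it was 0.18. The ginkgolic acid libraries of DDIT4 varied by 16.1%, where counting error alone would give 1.28%. Nearly all of that spread thus lay between the libraries and not in the counting. Among the 19 genes that averaged 1000 or more normalised read counts, DDIT4 ranked 2 and TXNIP 13 for the within-group SD of log2 values, from the largest. The antisense gene DDIT4-AS1 lies opposite DDIT4 and shares 847 of its 2058 exonic bases (41.2%). The sources used here do not say whether counting used strand, so reads of the antisense transcript may be among those of DDIT4.

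**Figure D2:**
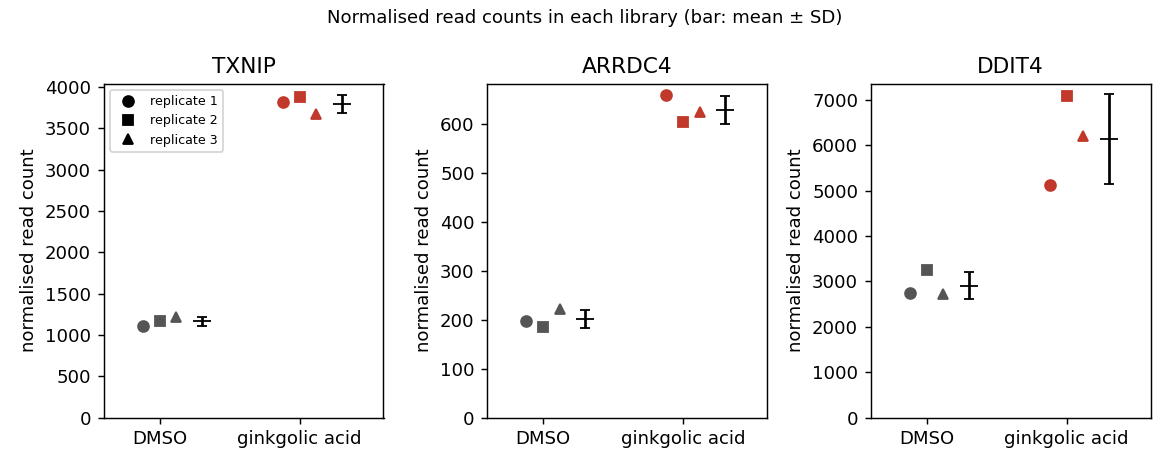
Normalised read counts of TXNIP, ARRDC4 and DDIT4 in each DMSO library (grey) and ginkgolic acid library (red), with a marker shape for each replicate number and a bar for the mean ± SD. Groups do not overlap for any of the 3 genes, and the ginkgolic acid libraries of DDIT4 spread from 5117 to 7090.

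Within each group the order of the genes was the same when levels were set per length. DDIT4 had 1411 ± 145 normalised read counts per 1000 exonic bases with DMSO and 2983 ± 480 with ginkgolic acid. TXNIP had 321.0 ± 15.6 and 1046 ± 30.3 on that scale, and ARRDC4 49.6 ± 4.69 and 154.5 ± 6.87 (SD, n = 3 each). Neighbours in this order were separated in each group by more than their spread. Among the 403 genes DDIT4 ranked 1, TXNIP 4 and ARRDC4 48 for the level per length over all libraries. By unscaled level, TXNIP went from rank 16 with DMSO to rank 4 with ginkgolic acid, ARRDC4 from 62 to 29 and DDIT4 from 5 to 2. Together the 3 genes took 6.03% to 6.71% of the table's reads in the DMSO libraries and 11.5% to 13.0% in the ginkgolic acid libraries.

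By fold, DDIT4 had the smallest difference of the 3 genes. Among the 253 higher genes, TXNIP ranked 43, ARRDC4 53 and DDIT4 219 by log2 fold change, and the median of the higher genes was 1.30. In the authors' deposited table the log2 fold changes were 1.70, 1.64 and 1.08, and 53 genes of that table had a smaller absolute value than DDIT4. The smallest absolute value that the authors' selection let through was 1.003. As a difference in normalised read counts, which are not corrected for length, DDIT4 ranked 2 of 403 with 3235, and TXNIP ranked 3 with 2628. ARRDC4, with a difference of 427.4, ranked 19.

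**Figure D3:**
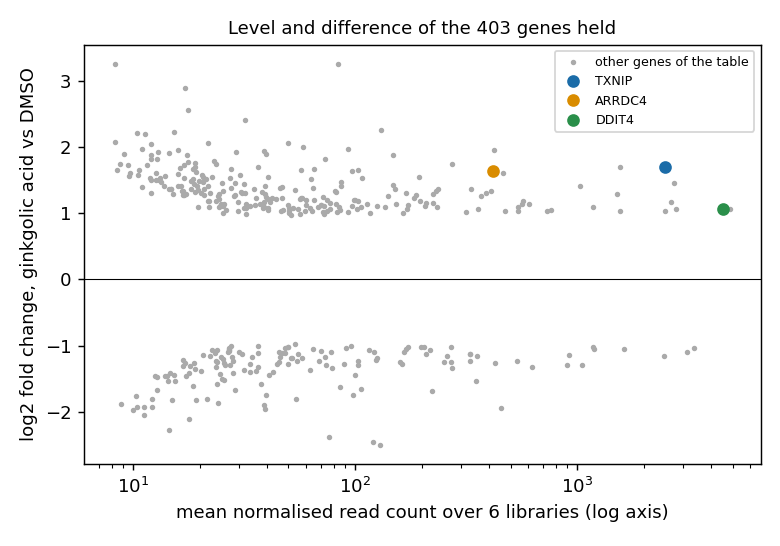
Each point is 1 of the 403 genes, by its mean normalised read count over 6 libraries (log axis) and its log2 fold change, ginkgolic acid against DMSO. TXNIP and DDIT4 lie at the right-hand edge of the plot among the most abundant genes, TXNIP at 1.70 and DDIT4 at 1.07, and the empty band around 0 is the authors' selection.

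The size of these differences depends on how libraries are scaled. With libraries rescaled to the median ratio over the 403 genes, most of which were higher, the median log2 fold change of the table moved by -0.89, from 1.10 to 0.22. That of TXNIP became 0.80, that of ARRDC4 0.74 and that of DDIT4 0.17. The shift was set by genes selected for a difference, so it does not show which scaling is right. Relative to the table's median, TXNIP stood at 0.60 on the authors' scaling and 0.59 on the other. ARRDC4 stood at 0.54 and 0.52, and DDIT4 at -0.03 and -0.05. These pairs are close by construction, since scaling a library acts on all its genes alike.

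Ratios of a pair of genes within a library do not depend on that scaling. TXNIP had 5.57, 6.34 and 5.46 reads for each ARRDC4 read in DMSO replicates 1, 2 and 3, and 5.80, 6.43 and 5.87 in ginkgolic acid replicates 1, 2 and 3. The values of the groups overlapped. On the log2 scale the ratio was 2.53 ± 0.12 with DMSO and 2.59 ± 0.08 with ginkgolic acid (SD, n = 3 each), a difference of 0.06 that was smaller than the spread within either group.

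The proportion of each alpha-arrestin to DDIT4 was higher with ginkgolic acid. There were 0.402, 0.361 and 0.446 TXNIP reads for each DDIT4 read in DMSO replicates 1, 2 and 3, and 0.747, 0.547 and 0.591 in the ginkgolic acid replicates. The groups did not overlap, and the log2 ratio differed by 0.63, from -1.32 ± 0.15 to -0.68 ± 0.23 (SD, n = 3 each). ARRDC4 had 0.0723, 0.0569 and 0.0817 reads for each DDIT4 read with DMSO and 0.129, 0.0852 and 0.101 with ginkgolic acid, in the same order. The lowest of the ginkgolic acid ratios, that of replicate 2, lay just above the highest of the DMSO ratios, that of replicate 3. The log2 ratio of ARRDC4 to DDIT4 differed by 0.57, from -3.85 ± 0.27 to -3.27 ± 0.30. Both ratios were highest in ginkgolic acid replicate 1, the library with the least DDIT4 of its group.

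**Figure D4:**
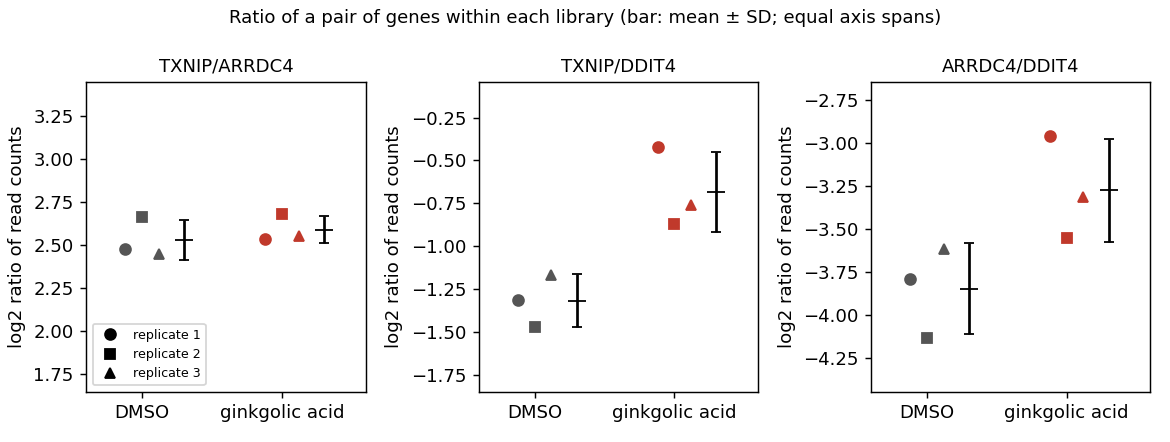
Log2 ratio of read counts of each pair of genes in each library, with the mean ± SD as bars and axes of equal span. The ratio of TXNIP to ARRDC4 overlaps between the groups (2.53 and 2.59 on average), while both ratios to DDIT4 are higher with ginkgolic acid.

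The spread between the ginkgolic acid libraries differed from gene to gene. DDIT4 was 0.25 below the ginkgolic acid mean in replicate 1 and 0.22 above it in replicate 2 on the log2 scale, while TXNIP stayed within 0.05 of its ginkgolic acid mean in every replicate. ARRDC4 was highest in ginkgolic acid replicate 1 (0.07 above its mean), where DDIT4 was lowest. The spread of ARRDC4 in that group (4.44%) was close to counting error (3.98%), so that contrast is not read further. Low values in ginkgolic acid replicate 1 were common. Of the 59 other higher genes that averaged 100 or more normalised read counts, 34 (57.6%) had their lowest ginkgolic acid value in that library. The part of that library in the spread of DDIT4 was not tested. Without it the log2 fold change of DDIT4 was 1.20, and without replicate 2 it was 0.96.

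Genes with the most similar pattern were sought over the 6 libraries. The measure was the Euclidean distance between log2 values, each gene taken relative to its own DMSO mean, among the 102 genes that averaged 100 or more normalised read counts. TXNIP was the nearest gene to ARRDC4 (distance 0.23), and ARRDC4 ranked 3 from TXNIP. Nearest to TXNIP was ACSS2 (0.20), which makes acetyl-CoA from acetate in the cytosol and nucleus. SDCBP2, a PDZ-domain protein that binds syndecans (0.29), and CREB3L3, a membrane-bound transcription factor of liver and intestine (0.29), were also among the 5 nearest to TXNIP. CREB3L3 had 242.2, 219.2 and 221.6 normalised read counts in DMSO replicates 1, 2 and 3 and 747.2, 685.3 and 657.3 in the ginkgolic acid replicates. For ARRDC4 the 5 nearest included TXNIP, CREB3L3 (0.25) and SDCBP2 (0.28). CREB3L3 and SDCBP2 were thus near both alpha-arrestins. The distance includes the fold change, so nearness partly restates a similar one. Log2 fold changes were 1.61 for CREB3L3 and 1.55 for SDCBP2, beside 1.70 for TXNIP and 1.64 for ARRDC4.

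TXNIP and ARRDC4 lay at distances of 1.16 and 1.13 from DDIT4, of which the lower fold change of DDIT4 alone gives 1.10 and 0.98. The 5 nearest genes to DDIT4 were the transcribed pseudogene AL390719.1 (0.20), the fatty acid 2-hydroxylase FA2H (0.24), the lipid droplet coat protein PLIN2 (0.24), the homeobox factor SIX4 (0.26) and CREBRF (0.27), a regulator of CREB3-type factors. FA2H had 320.3, 372.7 and 349.4 normalised read counts in DMSO replicates 1, 2 and 3 and 682.5, 898.1 and 802.1 in the ginkgolic acid replicates. In all 5, as in DDIT4, ginkgolic acid replicate 1 was the lowest of its group and DMSO replicate 2 the highest of its group. That order was also found in 14 of the 59 other higher genes (23.7%), the 5 included, and the distance itself favours genes that have it. Of the 5 genes nearest to TXNIP, and of the 5 nearest to ARRDC4, 0 had both the same lowest ginkgolic acid library and the same highest DMSO library as that gene.

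**Figure D5:**
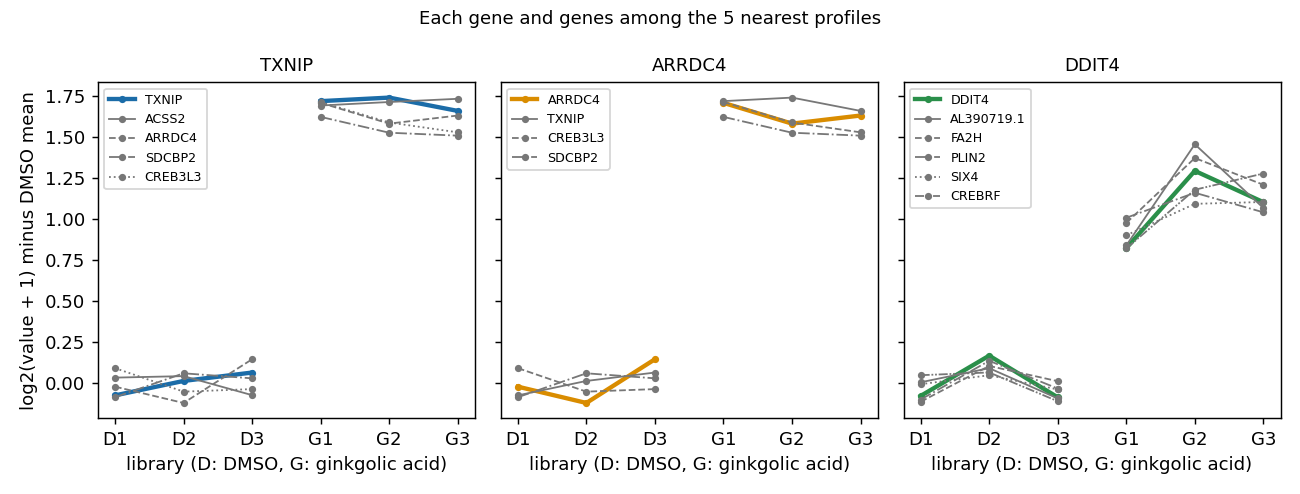
Log2(normalised read count + 1) minus the DMSO mean in each DMSO (D1 to D3) and ginkgolic acid (G1 to G3) library, for each of the 3 genes (coloured) and genes among the 5 nearest to it (grey). TXNIP and ARRDC4 vary less across G1 to G3 than DDIT4 does, and DDIT4 and its 5 neighbours are lowest in G1.

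Other genes of the pathways around TXNIP and ARRDC4 were looked up in the table, and a gene outside it was not analysed here. The authors' p-values imply that 16104 genes were tested, of which the table's 403 are 2.50%, and counts of listed genes in the table stand beside that share. The authors' selection needed an absolute log2 fold change above 1, so absence from the table does not show that a gene was unchanged. None of the 4 other alpha-arrestins (ARRDC1, ARRDC2, ARRDC3 and ARRDC5) was in it, nor any of the 18 glucose transporters and hexokinases or of the 12 genes of the thioredoxin system. Of 28 MondoA and ChREBP factors and targets, the table held FGF21, a hormone released by the liver. FGF21 had 1.001, 3.81 and 5.99 normalised read counts in DMSO replicates 1, 2 and 3 and 20.1, 38.0 and 33.3 in the ginkgolic acid replicates. These rest on 11 reads with DMSO and 92 with ginkgolic acid, so its log2 fold change of 2.91 (SE 0.48) is loosely fixed.

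The hexosamine pathway, which makes UDP-N-acetylglucosamine from fructose 6-phosphate, had 2 of 9 genes in the table, both higher, beside the 2.50% of all genes. This list was chosen with earlier results of these data known, so its count is not read against that share. GFPT2, an isoform of the first enzyme of the pathway, had 151.1, 105.8 and 131.8 normalised read counts with DMSO. With ginkgolic acid it had 294.6, 320.4 and 337.9, in replicate order. PGM3, which isomerises N-acetylglucosamine phosphate, had 720.7, 773.1 and 748.7 against 1669, 1564 and 1590. Of 31 genes of glycolysis and pyruvate use the table held PDK4, a kinase that switches off pyruvate dehydrogenase. PDK4 had 202.2, 148.7 and 166.7 normalised read counts with DMSO and 580.8, 758.0 and 672.3 with ginkgolic acid. Its groups did not overlap, as in 98.3% of the table's genes, and its log2 fold change was 1.95 (SE 0.14).

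Around DDIT4, none of 33 genes of the mTORC1 complex and its amino acid branch and none of 8 genes for AMPK subunits and the AMPK kinase was in the table. Of 13 genes of the axis from phosphoinositide 3-kinase through TSC to RHEB, which includes the homologue DDIT4L, the table held PIK3IP1, an inhibitor of phosphoinositide 3-kinase. PIK3IP1 had 24.0, 57.2 and 37.9 normalised read counts in DMSO replicates 1, 2 and 3 and 63.6, 74.9 and 100.05 in the ginkgolic acid replicates. Its highest DMSO library came close to its lowest ginkgolic acid library, and the log2 difference was 1.04 (SE 0.28). PIK3IP1 and PDK4 were also the 2 of 20 FOXO targets in the table, and counts so small are not read against the share of 2.50%.

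Lists of genes that respond to known inducers of DDIT4 gave isolated members. Of 33 ATF4 and integrated stress response genes the table held FGF21, and of 23 HIF targets it held none. Of 13 glucocorticoid receptor targets it held PER1, a repressor of the circadian clock, with 618.6, 535.7 and 507.1 normalised read counts with DMSO and 1116, 1702 and 1676 with ginkgolic acid. PER1, like DDIT4, was lowest in ginkgolic acid replicate 1. That was so for 34 of the 59 other higher genes compared with DDIT4 above (57.6%), PER1 included. The DMSO order differed, with PER1 highest in DMSO replicate 1 (618.6) and DDIT4 in DMSO replicate 2 (3249). The log2 fold change of PER1 was 1.41 (SE 0.14). Of 18 p53 targets the table held TP53I3, a quinone oxidoreductase, which was lower, as were 37.2% of the table's genes. TP53I3 had 98.1, 119.2 and 100.8 normalised read counts with DMSO and 55.1, 55.4 and 38.6 with ginkgolic acid. Over all lists 8 of 274 distinct gene symbols other than TXNIP, ARRDC4 and DDIT4 were in the table, 6 higher and 2 lower. That is 2.92%, near the 2.50% of all genes tested, and is not read as a result about the lists.

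The table's reads summed to between 67006 and 98627 per library over the 403 genes, and the full depth of the libraries is unknown. Of 14 hepatocyte and hepatoma markers the table held ALB, which had 16.0, 15.3 and 26.0 normalised read counts with DMSO and 7.42, 7.60 and 0.878 with ginkgolic acid, a low level for a liver cell. The other hepatocyte markers were not analysed here, so the labelled cell type was not checked further. None of 8 fibroblast, 6 leukocyte or 5 endothelial markers was in the table. Every pair of libraries differed by more than counting noise (chi-square of reads over genes), so none was counted as a repeat deposit of another. That does not show that they came from separate cultures.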

How the data were processed

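RNA-seq of total RNA was made from 6 HCCLM3 libraries, 3 per group. The submitters' processing notes name HISAT2 2.0.5 and the build hg38, featureCounts 1.5.0-p3, DESeq2 1.20.0, fastp and CASAVA 1.8. The sources used here do not give their settings. Per-library values, as deposited, are a signal in no stated unit. They were whole multiples of 1 step in each library (relative tolerance 1e-06), as read counts divided by a size factor would be, with size factors from 0.921 to 1.14. A further deposited file headed FPKM held the same values. Per the file headers, the authors' table also gives log2 fold changes and p-values, and its genes all lie above 1 in absolute log2 fold change and below 0.05 in adjusted p-value.

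A pseudocount of 1 was added, and log2 values were fitted over all 403 genes with limma 3.58.1 (R 4.3.3), with an intensity trend and Benjamini-Hochberg adjustment (threshold 0.05). The SEs of log2 fold changes are those of this fit, moderated toward that trend. A minimum mean of 1 removed 0 genes, and all 3 genes passed it. The limma fit called 253 genes higher and 150 lower. It was tested on simulated data. Ratios used no pseudocount. Counting error was taken as Poisson error of the recovered reads. The genes described and the lists were chosen with earlier results of these data known. The genes named are the 3, all list genes in the table and the 5 nearest profiles of each, some of which are not reported here. Of 274 list symbols 273 matched a GENCODE 29 gene, and the positions of the 3 genes equalled GENCODE 29 (GRCh38). Promoters of 206 of the 403 genes were matched by symbol in RefSeq. TXNIP has 2 RefSeq windows, and the one nearest to the deposited start was used. Python 3.11.15, pandas 2.3.3 and matplotlib 3.10.9 were used.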

Additional observations from a re-analysis of the deposited data

How the results depend on the processing

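Rescaling the libraries to the median ratio over the genes held gave 61 higher genes in place of 253, since it centres the libraries on selected genes that were mostly higher, and log2 fold changes of 0.80 for TXNIP, 0.74 for ARRDC4 and 0.17 for DDIT4. A minimum mean of 50 left 109 higher and 64 lower genes, because fewer genes were tested. With pseudocounts of 0.1 and 10, a minimum mean of 10, no intensity trend and the authors' deposited values, the log2 fold changes of the 3 genes moved by less than the spread between libraries. With any single library left out, between 250 and 253 genes were called higher and between 148 and 150 lower, with log2 fold changes of 1.67 to 1.74 for TXNIP, 1.58 to 1.71 for ARRDC4 and 0.96 to 1.20 for DDIT4. The difference in log2 ratio ran from 0.50 to 0.73 for TXNIP to DDIT4, from 0.41 to 0.71 for ARRDC4 to DDIT4 and from 0.02 to 0.13 for TXNIP to ARRDC4. The genes had been selected on these libraries, so stable counts are not independent evidence. Across genes, the residuals of libraries with the same number had correlations of -0.03, 0.00 and -0.07. Of 6 libraries, 0 correlated best with its own number. As a set these selected genes showed no pairing by number, but they cannot show that libraries of the same number were handled separately. Their median level was 39.5 normalised read counts, and whether counting error hid a pairing was not tested. A replicate block left the counts at 253 and 150. The log2 fold change of DDIT4 was then 1.07, with an SE of 0.05 against 0.10 without the block. DDIT4 was highest in replicate 2 of both groups. Its log2 deviations from the group mean were -0.25, 0.22 and 0.03 with ginkgolic acid, in replicate order. With DMSO they were -0.08, 0.17 and -0.09. Pairing in DDIT4 by itself was not tested. The block moved the SE of TXNIP from 0.065 to 0.062 and that of ARRDC4 from 0.109 to 0.119. With no intensity trend the SE rose from 0.07 to 0.13 for TXNIP and from 0.10 to 0.18 for DDIT4. A count model on whole reads had been planned and was not run, because that the values are scaled whole reads is inferred from the values and was not accepted as settled.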

Other observations

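The paired half-site motif CNCGNGNNNNNCNCGNG, present upstream of TXNIP, had a match in 10 of the 206 matched promoters of table genes. They were 4 of 130 higher genes (3.08%) and 6 of 76 lower genes (7.89%), beside 2.19% of all RefSeq promoters, and these shares were not tested. The higher genes were TXNIP, CREBRF, ADGRB2 and CAMK2B, and among the lower ones were HNRNPM, a splicing regulator, and GINS2, a subunit of the replicative helicase. CREBRF was also among the 5 nearest profiles of DDIT4. CCAAT, which the windows of TXNIP, ARRDC4 and DDIT4 have in common, had a match in 52 of 130 higher genes (40%) and 22 of 76 lower genes (28.9%), beside 35.7% of all RefSeq promoters.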
